A study of Homo sapiens with 12 samples.

Results

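The genes described here are 36 genes of purine and pyrimidine nucleotide synthesis and salvage, chosen by name from the 61466 genes of the deposited table. All 36 were found, and 35 of them passed the filter for testing. They were measured by RNA sequencing in Farage and SU-DHL-8, established cell lines of diffuse large B cell lymphoma, a cancer of mature B lymphocytes. Each line was kept with morusinol or with vehicle for 12 h, in 3 libraries per group and 12 libraries in all: morusinol-treated Farage, vehicle-treated Farage, morusinol-treated SU-DHL-8 and vehicle-treated SU-DHL-8. The vehicle groups are called control below. Morusinol is a flavonoid of mulberry root bark. No dose is stated in the labels. Both lines carry the label wild type, which is read here as no engineered change in any group. Each line is a single tumour line, and the labels do not say whether the replicates were separate cultures, so the p-values measure only the spread between these libraries.

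Cells make nucleotides along a de novo route, which builds the bases from amino acids, carbon dioxide and one-carbon units, and along salvage routes, which return free bases and nucleosides to the pool. Purines are built on phosphoribosyl pyrophosphate (PRPP) up to IMP, from which AMP and GMP are made. Pyrimidines are built as a ring first, joined to PRPP and carried to UMP, from which CTP is made. Ribonucleotide reductase turns ribonucleotides into deoxynucleotides for DNA, and lymphoid cells are known for a high demand for both routes and for their sensitivity to drugs that block them.

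Values are FPKM (fragments scaled by gene length and library size). Fold changes are differences of log2(FPKM + 1), given with their standard error (SE), and understate the change of genes with low values. A gene was called higher or lower when its limma p, adjusted over the 17574 genes tested, was under 0.05. The estimated depth was 6.05 to 18.9 M fragments per library (M for mega). With morusinol, 2 of the 3 SU-DHL-8 libraries and all 3 Farage libraries were shallower than every control of their line, and the part of depth in the results was not tested. Every library held all 6 B lymphocyte markers, the lowest being CD22 at 2.67 FPKM. Summed, they came to 613 to 660 FPKM in Farage with morusinol against 966 to 1020 in Farage control, and to 230 to 238 FPKM in SU-DHL-8 with morusinol against 354 to 368 in SU-DHL-8 control. The sums rest largely on single genes. In Farage all the means were lower, but MS4A1 averaged 92.9 FPKM with morusinol against 356 in control, and CD79A 376 against 391. In SU-DHL-8 CD79A averaged 43 FPKM with morusinol against 175 in control. There CD79B (91.6 against 71.7) and PAX5 (45.1 against 39.8) were higher, and the other markers were lower. The 10 markers of T and NK cells summed to 3.77 to 6.10 FPKM in Farage with morusinol against 4.67 to 5.09 in control, and to 1.89 to 2.33 FPKM in SU-DHL-8 with morusinol against 0.907 to 1.67 in control. The 8 myeloid markers summed to 0.762 to 0.970 FPKM in Farage with morusinol against 0.565 to 0.867 in control, and to 1 to 1.38 FPKM in SU-DHL-8 with morusinol against 1.69 to 1.80 in control. Some of these markers were not silent. PRF1 averaged 3.73 FPKM in Farage with morusinol and 4.05 in Farage control, most of the T and NK sum there. NKG7 averaged 1.95 FPKM in SU-DHL-8 with morusinol and 1.38 in control, and LYZ 0.773 and 1.37. CD3D reached at most 0.0158 FPKM, and S100A8 and S100A9 were at 0 in all libraries. The 8 markers of fibroblasts, endothelium and epithelium were low, at 1.61 to 2.95 FPKM in Farage with morusinol against 0.412 to 2.03 in control, and at 0.558 to 0.790 FPKM in SU-DHL-8 with morusinol against 0.0611 to 0.134 in control. In SU-DHL-8 none of these sums overlapped between treated and control libraries. In Farage the B lymphocyte sums did not overlap, and the other sums did. COL1A1, among the last markers, averaged 0.55 FPKM in SU-DHL-8 with morusinol against 0.0384 in control. The part of these markers in the results was not tested. These are whole-culture samples, so fewer cells of a kind, such as cells in S phase, and less RNA per cell cannot be told apart.

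In SU-DHL-8, 30 of the 35 tested genes were lower with morusinol and 0 were higher. Over all genes tested 21.6% were lower and 25.1% were higher. The 5 genes not called were IMPDH2, ADA, DHODH, CTPS2 and DCTD. CTPS2 was at most at 0.0119 FPKM in SU-DHL-8 and passed the filter only through Farage, so no fall could be seen there. The median log2 fold change of the 35 genes was -0.60, against 0.02 over all genes. With the library medians made equal, the median over all genes was -0.13, the share of higher genes among all called genes was 36.8% instead of 53.7%, and 31 of the 35 genes were lower and 0 higher. In Farage 25 of the 35 genes were lower and 0 were higher, where 21.2% of all genes were lower and 21.9% were higher. The median was -0.38, against -0.03 over all genes. The call of lower was shared by both lines for 23 genes, which is 76.7% of the SU-DHL-8 list and 92% of the Farage list. Over all genes tested, 11.1% were lower in both lines. ADA, CTPS2 and DCTD were called in neither line, and for CTPS2 only the Farage libraries could have shown a fall.

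**Figure D1:**
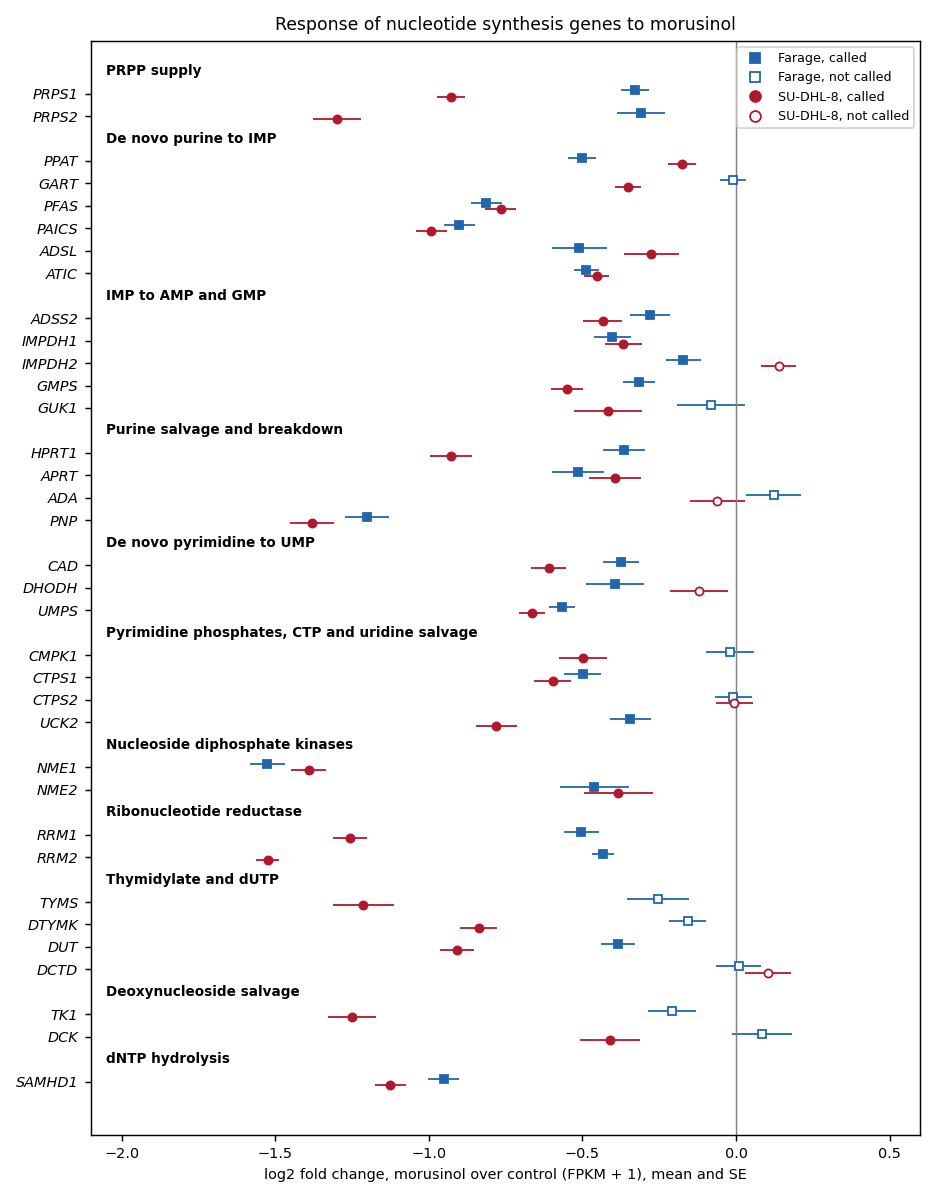
Log2 fold change of FPKM + 1, morusinol over control, for the 35 tested genes in the order of the pathway; points are fitted differences and bars their SE, Farage in blue squares above SU-DHL-8 in red circles, filled where called. Nearly all points lie left of 0, and the widest gaps between the lines are in the PRPP, ribonucleotide reductase, thymidylate and TK1 lines of the plot.

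PRPP is the sugar phosphate shared by the de novo routes and the salvage of free bases, and PRPS1 and PRPS2 encode the synthetases that make it. Both were lower with morusinol in both lines, more so in SU-DHL-8. PRPS2 was at 10.9, 10.2 and 13.4 FPKM in SU-DHL-8 with morusinol, against 28.96, 31.1 and 28.7 FPKM in SU-DHL-8 control. In Farage the PRPS2 values were 25.8, 25.6 and 26.3 FPKM with morusinol, against 32.8, 31.3 and 33.0 FPKM in control. The treated libraries lay below the controls in both lines without overlap. The log2 fold change of PRPS2 was -1.30 ± 0.08 in SU-DHL-8 (limma adjusted p = 2.94e-07) and -0.31 ± 0.08 in Farage (limma adjusted p = 0.00855). PRPS1 averaged 20.9 ± 0.551 FPKM in SU-DHL-8 with morusinol and 40.8 ± 1.02 FPKM in control (SD, n = 3 each). In Farage it averaged 19.6 ± 0.191 FPKM with morusinol and 24.9 ± 1.6 FPKM in control. The bases around the start of PRPS2 are shown because it is one of the genes whose response differed most between the lines and because its window holds letters of an E2F site. They come from the RefSeq promoter table on GRCh38.p14 (chrX:12791262-12791411, plus strand), with the E2F letters in capitals.
PRPS2: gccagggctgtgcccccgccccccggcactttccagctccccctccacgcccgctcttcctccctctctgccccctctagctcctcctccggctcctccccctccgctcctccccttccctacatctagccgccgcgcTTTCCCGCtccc

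The 6 genes of the route to IMP were all lower in SU-DHL-8, and 5 of them, all but GART, were lower in Farage. Of all genes tested, 21.6% were lower in SU-DHL-8 and 21.2% in Farage. PPAT encodes the amidotransferase of the committed step. It was at 19.9, 19.6 and 20.6 FPKM in SU-DHL-8 with morusinol, against 22.3, 23.7 and 22.3 FPKM in control. The Farage libraries held PPAT at 9.21, 8.75 and 8.87 FPKM with morusinol, against 12.4, 13.1 and 13.8 FPKM in control. The libraries did not overlap in either line, but the gap was small in SU-DHL-8, where the log2 fold change was -0.18 ± 0.05 (limma adjusted p = 0.00841), against -0.50 ± 0.05 in Farage (adjusted p = 8.61e-06). The SU-DHL-8 call was lost when values were scaled to protein-coding genes (adjusted p = 0.0706).

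PAICS, which carries out the carboxylation step and the step after it, fell in both lines, with larger fold changes than PPAT. It was at 54.7, 48.4 and 51.1 FPKM in SU-DHL-8 with morusinol, against 103, 107 and 98.9 FPKM in control. PAICS in Farage was at 32.8, 31.8 and 34.5 FPKM with morusinol, against 62.3, 61.5 and 63.7 FPKM in control. The log2 fold change was -0.99 ± 0.05 in SU-DHL-8 and -0.90 ± 0.05 in Farage, with limma adjusted p of 7.69e-08 and 2.67e-07. PFAS, the synthase that adds a nitrogen from glutamine, was at 20.8, 20.4 and 20.7 FPKM in SU-DHL-8 with morusinol, against 35.9, 33.9 and 37.7 FPKM in control. In Farage PFAS was at 10.4, 9.85 and 10.7 FPKM with morusinol, against 19.98, 18.6 and 18.1 FPKM in control. PAICS and PFAS thus had no overlap between treated and control libraries in either line, and the log2 fold change of PFAS was -0.77 ± 0.05 in SU-DHL-8 and -0.81 ± 0.05 in Farage.

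PPAT and PAICS lie head to head on chromosome 4. Their GENCODE starts are 126 bases apart, on opposite strands. The ratio of PAICS to PPAT was 2.75, 2.47 and 2.48 in SU-DHL-8 with morusinol, against 4.63, 4.52 and 4.44 in control. In Farage the ratio was 3.56, 3.64 and 3.89 with morusinol, against 5.04, 4.71 and 4.61 in control. The ratio was thus lower in every treated library than in every control of its line, by 0.82 on the log2 scale in SU-DHL-8 and by 0.37 in Farage. The ratio was chosen after its values were seen, and an exact two-sided permutation test of 3 against 3 libraries cannot go below the p = 0.1 that it gave in each line, so it could not pass the threshold. PAICS also has 7 named pseudogenes, the highest at 0.756 FPKM. The 125 bases between these GENCODE starts are shown for that reason on the strand of PPAT (chr4:56435616-56435740, minus strand, from the RefSeq window of PPAT on GRCh38.p14). The RefSeq window of PAICS lies at another start, so this stretch is upstream of PAICS only by its GENCODE start. It holds none of the motifs searched, so no letter is in capitals.
PPAT: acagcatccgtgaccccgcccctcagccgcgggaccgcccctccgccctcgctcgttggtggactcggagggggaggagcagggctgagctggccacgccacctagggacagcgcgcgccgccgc

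The other genes of the route to IMP had smaller fold changes than PAICS and PFAS. ATIC, the bifunctional enzyme of the last steps, averaged 51.2 ± 1.72 FPKM in SU-DHL-8 with morusinol and 70.5 ± 1.13 FPKM in control. In Farage it averaged 44.0 ± 1.99 FPKM with morusinol and 62.1 ± 1.81 FPKM in control. GART, a trifunctional enzyme, had a log2 fold change of -0.35 ± 0.04 in SU-DHL-8 (limma adjusted p = 4.70e-05) and of -0.01 ± 0.04 in Farage (adjusted p = 0.882), where treated and control libraries overlapped. ADSL, the lyase that acts both before IMP and on the way to AMP, was listed at only 1.12 to 2.42 FPKM. A protein-coding gene known only by its clone name shares, on the same strand, 18.9% of the exon bases of ADSL and was at 0.106 FPKM on average. The SU-DHL-8 call of ADSL (log2 fold change -0.28 ± 0.09, limma adjusted p = 0.0254) was lost without control 1, control 3, morusinol 1 or morusinol 3, with limma adjusted p of 0.0605 to 0.0981. It was lost as well under 3 other settings (adjusted p 0.0592 to 0.0938). In Farage ADSL had a log2 fold change of -0.51 ± 0.09 (adjusted p = 0.000867).

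From IMP, ADSS2 leads to AMP, and IMPDH1 or IMPDH2 followed by GMPS leads to GMP, which GUK1 phosphorylates. Both IMP dehydrogenases catalyse the same rate-limiting step toward GMP, and in SU-DHL-8 IMPDH1 was called lower while IMPDH2 was not called. IMPDH1 was at 25.6, 26.3 and 24.1 FPKM in SU-DHL-8 with morusinol, against 33.7, 31.5 and 33.6 FPKM in control. In Farage IMPDH1 was at 6.39, 6.36 and 5.83 FPKM with morusinol, against 9.34, 7.95 and 8.26 FPKM in control. IMPDH1 was lower in both lines without overlap, with log2 fold changes of -0.37 ± 0.06 in SU-DHL-8 (limma adjusted p = 0.000539) and -0.40 ± 0.06 in Farage (adjusted p = 0.000353). IMPDH1 has 7 named pseudogenes, the highest at 2.60 FPKM on average.

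IMPDH2, the more abundant of the pair in FPKM, was at 78.5, 74.6 and 73.8 FPKM in SU-DHL-8 with morusinol, against 70.2, 66.9 and 68.8 FPKM in control. All 3 treated libraries of SU-DHL-8 lay above the controls, but the log2 fold change of 0.14 ± 0.06 did not pass the test (limma adjusted p = 0.0763). It passed when only the SU-DHL-8 libraries were fitted (adjusted p = 0.0238) and when values were scaled to protein-coding genes (adjusted p = 0.00500), and it was -0.01 with the library medians made equal. In Farage IMPDH2 was at 49.8, 46.4 and 43.5 FPKM with morusinol, against 54.7, 48.6 and 54.5 FPKM in control. These libraries overlapped, and the call of lower (log2 fold change -0.17 ± 0.06, adjusted p = 0.0355) was lost without control 1, control 3, morusinol 2 or morusinol 3 (adjusted p 0.0818 to 0.121) and under 6 other settings (0.0592 to 0.126).

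ADSS2 and GMPS were lower in both lines. GMPS averaged 22.2 ± 0.837 FPKM in SU-DHL-8 with morusinol and 33.0 ± 1.2 FPKM in control. In Farage it averaged 17.4 ± 0.927 FPKM with morusinol and 21.8 ± 1.18 FPKM in control. ADSS2 had log2 fold changes of -0.43 ± 0.06 in SU-DHL-8 and -0.28 ± 0.06 in Farage. GUK1 was lower in SU-DHL-8 (-0.42 ± 0.11, limma adjusted p = 0.00949), and its libraries overlapped in Farage (-0.08 ± 0.11, adjusted p = 0.603). GMPS has 1 named pseudogene, at 3.78 FPKM on average, whose reads may be shared with it.

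**Figure D2:**
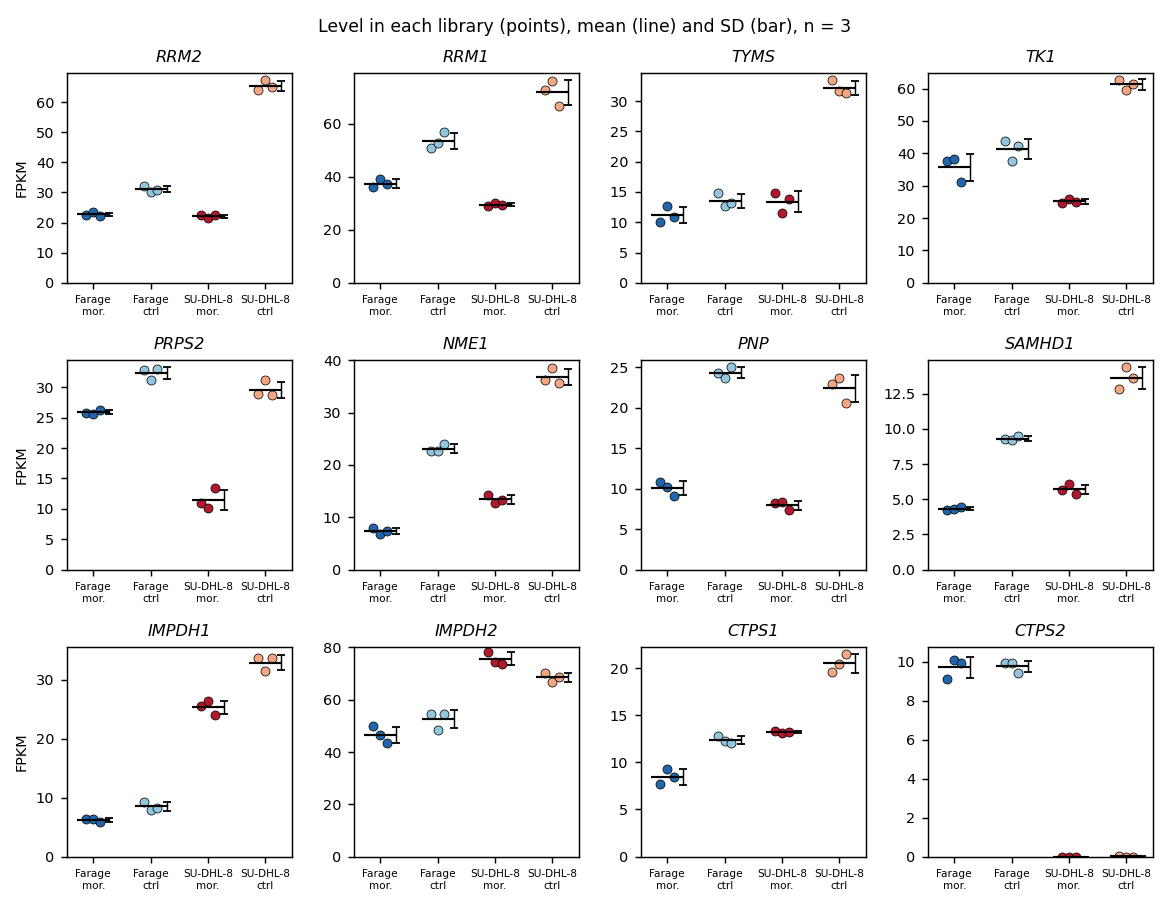
FPKM of 12 genes in each of the 12 libraries; points are libraries, lines the mean and bars the SD (n = 3), with morusinol left of control within each line, and every axis starts at 0. RRM2 in SU-DHL-8 sits at 21.5 to 22.4 FPKM with morusinol, below 64.2 to 67.3 in control, while CTPS2 is at or near 0 in all SU-DHL-8 libraries.

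The purine salvage and breakdown genes were HPRT1, APRT, ADA and PNP, of which HPRT1, APRT and PNP were lower in both lines, where 11.1% of all genes were. PNP, the phosphorylase that cleaves guanosine, inosine and their deoxy forms and whose loss is known to harm T cells, was among the genes that fell most. It was at 8.18, 8.39 and 7.35 FPKM in SU-DHL-8 with morusinol, against 22.9, 23.7 and 20.5 FPKM in control. Farage libraries had PNP at 10.8, 10.2 and 9.12 FPKM with morusinol, against 24.3, 23.7 and 25.0 FPKM in control. No treated library reached a control, and the log2 fold change was -1.38 ± 0.07 in SU-DHL-8 (limma adjusted p = 8.92e-08) and -1.20 ± 0.07 in Farage (adjusted p = 4.24e-07). An annotated noncoding gene on the opposite strand covers 11.9% of its exon bases and was listed at 0. The bases near the RefSeq start of PNP (chr14:20469256-20469405, plus strand, GRCh38.p14) are shown as those of the salvage gene with the largest fall, with a CCAAT box, read here on the opposite strand as ATTGG, in capitals.
PNP: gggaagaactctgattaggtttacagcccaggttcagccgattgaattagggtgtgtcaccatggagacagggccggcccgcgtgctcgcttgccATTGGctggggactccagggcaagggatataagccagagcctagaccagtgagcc

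HPRT1, which salvages hypoxanthine and guanine, was at 39.6, 39.9 and 39.5 FPKM in SU-DHL-8 with morusinol, against 76.7, 84.9 and 68.3 FPKM in control. In Farage the HPRT1 values were 43.2, 46.8 and 46.6 FPKM with morusinol, against 56.3, 59.6 and 61.1 FPKM in control. The treated libraries were below the controls in both lines, by a log2 fold change of -0.93 ± 0.07 in SU-DHL-8 (limma adjusted p = 1.39e-06) and of -0.37 ± 0.07 in Farage (adjusted p = 0.00148). APRT, its counterpart for adenine, averaged 35.0 ± 1.5 FPKM in SU-DHL-8 with morusinol and 46.3 ± 0.817 FPKM in control. In Farage APRT averaged 24.7 ± 2.83 FPKM with morusinol and 35.7 ± 3.59 FPKM in control. ADA, the adenosine deaminase, was low in both lines and was not called. It was at 1.90, 1.71 and 1.82 FPKM in Farage with morusinol, against 1.69, 1.44 and 1.62 FPKM in control. In SU-DHL-8 ADA was at 1.09, 0.821 and 0.834 FPKM with morusinol, against 1.04, 0.902 and 1.05 FPKM in control. PKIG, on the opposite strand, shares 1.61% of the exon bases of ADA and was at 17.7 FPKM on average.

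Of the 3 genes of the pyrimidine route to UMP, CAD and UMPS were lower in both lines and DHODH was called lower in Farage. Among all genes tested, 11.1% were lower in both lines and 21.2% in Farage. CAD encodes the large protein that carries the first activities of the route. It was at 26.0, 25.0 and 24.9 FPKM in SU-DHL-8 with morusinol, against 39.9, 35.95 and 41.9 FPKM in control. The Farage libraries held CAD at 26.4, 25.7 and 24.6 FPKM with morusinol, against 35.4, 32.3 and 32.6 FPKM in control. Treated and control libraries did not overlap, and the log2 fold change was -0.61 ± 0.06 in SU-DHL-8 (limma adjusted p = 8.35e-06) and -0.37 ± 0.06 in Farage (adjusted p = 0.000378).

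DHODH, the mitochondrial dehydrogenase of the route and a known drug target, was at 3.65, 3.22 and 4.06 FPKM in SU-DHL-8 with morusinol, against 3.998, 3.97 and 4.14 FPKM in control. DHODH in Farage was at 1.51, 1.81 and 1.19 FPKM with morusinol, against 2.21, 2.32 and 2.27 FPKM in control. The libraries overlapped in SU-DHL-8 (log2 fold change -0.12 ± 0.09, limma adjusted p = 0.341) and not in Farage (-0.39 ± 0.09, adjusted p = 0.00638). The difference between these responses did not pass the test (-0.27 ± 0.13, adjusted p = 0.145), though it did without Farage morusinol 2 (-0.36, adjusted p = 0.0489). With equal library medians DHODH was also called lower in SU-DHL-8 (adjusted p = 0.0486). UMPS, which makes UMP from orotate, averaged 6.57 ± 0.290 FPKM in SU-DHL-8 with morusinol and 11 ± 0.316 FPKM in control. In Farage UMPS averaged 6.02 ± 0.153 FPKM with morusinol and 9.40 ± 0.247 FPKM in control.

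CTPS1 and CTPS2 both encode CTP synthase, which makes CTP from UTP, and CTPS1 is the form known to be needed by dividing lymphocytes. CTPS1 was at 13.3, 13.2 and 13.2 FPKM in SU-DHL-8 with morusinol, against 19.5, 20.5 and 21.6 FPKM in control. Farage libraries had CTPS1 at 7.66, 9.34 and 8.43 FPKM with morusinol, against 12.8, 12.3 and 12.0 FPKM in control. CTPS1 was lower without overlap in both lines, with a log2 fold change of -0.60 ± 0.06 in SU-DHL-8 (limma adjusted p = 1.52e-05) and -0.50 ± 0.06 in Farage (adjusted p = 7.53e-05).

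CTPS2 was listed at 0 in 5 of the 6 SU-DHL-8 libraries, all 3 with morusinol and control 2 and 3, and at 0.0119 FPKM in control 1. In Farage the CTPS2 values were 9.09, 10.1 and 9.91 FPKM with morusinol, against 9.92, 9.94 and 9.43 FPKM in control. These Farage groups overlapped, and the log2 fold change was -0.01 ± 0.06 (limma adjusted p = 0.931). SU-DHL-8 thus had CTPS1 as its only CTP synthase above 0.0119 FPKM. CTPS2 is an X-linked gene, at positions 16588003 to 16712936 on GRCh38.

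CMPK1 and UCK2 supply pyrimidine monophosphates and diphosphates. UCK2, the uridine and cytidine kinase that is known to be higher in tumours than in normal tissue, was at 14.99, 15.6 and 15.1 FPKM in SU-DHL-8 with morusinol, against 25.8, 27.3 and 27.6 FPKM in control. The Farage libraries held UCK2 at 4.58, 3.85 and 3.60 FPKM with morusinol, against 5.59, 5.04 and 5.40 FPKM in control. The treated libraries were below the controls in both lines, at log2 fold changes of -0.78 ± 0.07 in SU-DHL-8 and -0.34 ± 0.07 in Farage. TMCO1, on the opposite strand, shares 3.18% of the exon bases of UCK2 and was at 30.3 FPKM on average. CMPK1 was at 30.0, 32.2 and 32.9 FPKM in SU-DHL-8 with morusinol, against 44.8, 48.2 and 42.4 FPKM in control. In Farage CMPK1 was at 58.1, 59.2 and 69.8 FPKM with morusinol, against 58.2, 65.2 and 65.7 FPKM in control. It was lower in SU-DHL-8 (-0.50 ± 0.08, limma adjusted p = 0.000367), and in Farage its groups overlapped (-0.02 ± 0.08, adjusted p = 0.884).

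The nucleoside diphosphate kinases NME1 and NME2 turn diphosphates into triphosphates, and NME1 is also known as a metastasis suppressor. NME1 was at 14.3, 12.7 and 13.3 FPKM in SU-DHL-8 with morusinol, against 36.2, 38.5 and 35.7 FPKM in control. NME1 in Farage was at 7.87, 6.89 and 7.41 FPKM with morusinol, against 22.7, 22.7 and 24.1 FPKM in control. The log2 fold change of -1.53 ± 0.06 in Farage (limma adjusted p = 1.68e-08) stood beside -1.39 ± 0.06 in SU-DHL-8 (adjusted p = 1.95e-08), and the difference did not pass the test (-0.13 ± 0.08, adjusted p = 0.230). NME1 had the largest fall of the 35 genes in Farage.

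NME2 was low, at 0.727 to 0.842 FPKM in Farage with morusinol against 1.24 to 1.60 in control, and at 0.991 to 1.61 FPKM in SU-DHL-8 with morusinol against 1.90 to 2.17 in control. It was called lower in both lines. The SU-DHL-8 call (log2 fold change -0.38 ± 0.11, limma adjusted p = 0.0167) was lost without control 2 or morusinol 3, at adjusted p of 0.0590 to 0.0634, and when only SU-DHL-8 libraries were fitted (0.0531). The readthrough gene NME1-NME2 holds 18.6% of the exon bases of NME1 and 22.9% of those of NME2, and it was listed at 0. A named pseudogene of NME2 was at 3.11 FPKM on average, above NME2 itself at 1.41. Reads of NME1, NME2, the readthrough gene and the pseudogene may have been split or dropped by the counting, so their levels are uncertain.

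Genes that make and keep deoxynucleotides were among those with the largest falls in SU-DHL-8. Of the 9 genes (RRM1, RRM2, TYMS, DTYMK, DUT, DCTD, TK1, TK2 and DCK), 8 were tested. In SU-DHL-8, 7 were lower, where 21.6% of all genes were, with a median log2 fold change of -1.06 over the 8. In Farage 3 were lower (RRM1, RRM2 and DUT), where 21.2% of all genes were, with a median of -0.23, and TK1, TYMS and DTYMK were called as well in some fits without 1 library, as given with each gene. RRM1 and RRM2 encode the large and the small subunit of ribonucleotide reductase, and RRM2 is known to be made mainly in S phase. RRM2 was at 22.4, 21.5 and 22.4 FPKM in SU-DHL-8 with morusinol, against 64.2, 67.3 and 65.0 FPKM in control. In Farage RRM2 was at 22.4, 23.4 and 22.3 FPKM with morusinol, against 32.1, 30.2 and 30.8 FPKM in control. The treated libraries of both lines thus lay within 21.5 to 23.4 FPKM, below controls that stood apart. The log2 fold change was -1.53 ± 0.04 in SU-DHL-8 (limma adjusted p = 5.95e-10), the largest fall of the 35 genes there, and -0.43 ± 0.04 in Farage (adjusted p = 4.81e-06). A protein-coding gene known only by its clone name covers, on the same strand, 20.2% of the exon bases of RRM2 and has no value in the deposited table.

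RRM1 was at 29.2, 30.0 and 29.3 FPKM in SU-DHL-8 with morusinol, against 72.6, 76.3 and 66.9 FPKM in control. Farage libraries had RRM1 at 36.02, 39.04 and 37.3 FPKM with morusinol, against 51.0, 52.6 and 57.0 FPKM in control. The groups did not overlap in either line, at log2 fold changes of -1.26 ± 0.06 in SU-DHL-8 (limma adjusted p = 3.23e-08) and -0.50 ± 0.06 in Farage (adjusted p = 3.73e-05).

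TYMS, thymidylate synthase, makes dTMP from dUMP and is the target of fluorouracil. It was at 14.9, 11.5 and 13.8 FPKM in SU-DHL-8 with morusinol, against 33.4, 31.7 and 31.4 FPKM in control. In Farage the TYMS values were 10.1, 12.7 and 10.9 FPKM with morusinol, against 14.8, 12.7 and 13.2 FPKM in control. TYMS was lower in SU-DHL-8 without overlap (log2 fold change -1.21 ± 0.10, limma adjusted p = 3.04e-06). In Farage morusinol 2, at 12.68, lay just above control 2, at 12.65, and the difference of -0.25 ± 0.10 did not pass the test (adjusted p = 0.0645). It passed without Farage morusinol 2 (adjusted p = 0.0240). ENOSF1, on the opposite strand, shares 39.2% of the exon bases of TYMS and was at 2.84 FPKM on average. The strand of counting is not given, so reads of the shared bases cannot be told apart.

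DTYMK, which phosphorylates dTMP, was at 19.3, 21.5 and 19.5 FPKM in SU-DHL-8 with morusinol, against 38.7, 35.7 and 35.7 FPKM in control. The Farage libraries held DTYMK at 18.0, 17.2 and 16.3 FPKM with morusinol, against 19.7, 17.9 and 20.2 FPKM in control. Treated and control libraries were apart in SU-DHL-8 (log2 fold change -0.84 ± 0.06, limma adjusted p = 1.22e-06) and overlapped narrowly in Farage (-0.16 ± 0.06, adjusted p = 0.0606), where the call was made without control 2 (adjusted p = 0.0240). DUT, the dUTPase that keeps uracil out of DNA, averaged 21.5 ± 0.756 FPKM in SU-DHL-8 with morusinol and 41.3 ± 2.31 FPKM in control. In Farage DUT averaged 35.0 ± 0.454 FPKM with morusinol and 46.0 ± 3.2 FPKM in control. An antisense gene on the opposite strand shares 14.5% of its exon bases, at 0.964 FPKM on average, and DUT has 8 named pseudogenes. DCTD, the deaminase that turns dCMP into dUMP, was not called in either line. It averaged 24.6 ± 1.76 FPKM in SU-DHL-8 with morusinol and 22.8 ± 1.32 FPKM in control, and 21.8 ± 1.14 FPKM in Farage with morusinol and 21.7 ± 1.9 FPKM in control.

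The bases near the RefSeq starts of RRM2 (chr2:10122589-10122738, plus strand), TYMS (chr18:657503-657652, plus strand) and DTYMK (chr2:241686816-241686965, minus strand) are shown on GRCh38.p14 because these genes fell in SU-DHL-8 and had responses among those that differed most between the lines. The capitals mark CCAAT boxes in RRM2, the letters of an E2F site in TYMS, and the letters of an E2F site and CCAAT boxes in DTYMK.
RRM2: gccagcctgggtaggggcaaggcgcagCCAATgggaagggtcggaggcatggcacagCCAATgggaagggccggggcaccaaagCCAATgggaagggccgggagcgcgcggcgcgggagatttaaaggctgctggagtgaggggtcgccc
TYMS: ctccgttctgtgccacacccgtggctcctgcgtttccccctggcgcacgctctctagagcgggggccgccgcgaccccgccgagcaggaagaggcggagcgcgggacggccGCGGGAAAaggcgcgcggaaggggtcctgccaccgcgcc
DTYMK: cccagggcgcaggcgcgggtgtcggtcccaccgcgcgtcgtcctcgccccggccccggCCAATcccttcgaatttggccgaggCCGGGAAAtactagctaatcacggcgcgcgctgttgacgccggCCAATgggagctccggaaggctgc

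TK1, the cytosolic thymidine kinase that is known to follow S phase, was at 24.7, 26.0 and 24.8 FPKM in SU-DHL-8 with morusinol, against 62.7, 59.6 and 61.5 FPKM in control. TK1 in Farage was at 37.6, 38.4 and 31.0 FPKM with morusinol, against 43.7, 37.8 and 42.2 FPKM in control. TK1 was lower in SU-DHL-8 (log2 fold change -1.25 ± 0.08, limma adjusted p = 3.80e-07), while the Farage groups overlapped (-0.21 ± 0.08, adjusted p = 0.0524). The Farage value passed the test without control 2, without morusinol 1 and without morusinol 2 (adjusted p 0.0248, 0.0478 and 0.0306). DCK, the kinase that activates deoxycytidine and drugs such as cytarabine, was at 18.7, 18.3 and 20.6 FPKM in SU-DHL-8 with morusinol, against 25.2, 29.2 and 23.3 FPKM in control. In Farage DCK was at 23.8, 25.2 and 27.3 FPKM with morusinol, against 22.1, 22.6 and 27.3 FPKM in control. DCK was lower in SU-DHL-8 (-0.41 ± 0.10, adjusted p = 0.00551), and in Farage the groups overlapped (0.08 ± 0.10, adjusted p = 0.540). MOB1B, on the same strand, shares 6.17% of the exon bases of DCK and was at 10.97 FPKM on average.

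TK2, the mitochondrial thymidine kinase, stood apart from the other members. It was at 0.785, 0.799 and 0.895 FPKM in SU-DHL-8 with morusinol, against 0.391, 0.327 and 0.464 FPKM in control. Farage libraries had TK2 at 0.241, 0.336 and 0.199 FPKM with morusinol, against 0.148, 0.141 and 0.166 FPKM in control. Every treated library was above every control of its line, but TK2 stayed below 1 FPKM in all libraries and so was not tested. With the filter lifted, its log2 fold change was 0.39 ± 0.08 in SU-DHL-8 (limma adjusted p = 0.00437) and 0.13 ± 0.08 in Farage (adjusted p = 0.349).

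SAMHD1, which breaks deoxynucleoside triphosphates down and is known as a restriction factor and as a barrier to cytarabine, fell in both lines. It was at 5.64, 6.07 and 5.40 FPKM in SU-DHL-8 with morusinol, against 12.9, 14.4 and 13.6 FPKM in control. In Farage the SAMHD1 values were 4.23, 4.32 and 4.46 FPKM with morusinol, against 9.27, 9.19 and 9.50 FPKM in control. No treated library overlapped the controls, at log2 fold changes of -1.13 ± 0.05 in SU-DHL-8 (limma adjusted p = 3.34e-08) and -0.95 ± 0.05 in Farage (adjusted p = 1.79e-07). TLDC2, on the opposite strand, shares 10.3% of its exon bases and was at 0.155 FPKM on average.

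The responses of the lines were compared directly by the difference of the responses, Farage minus SU-DHL-8. A positive value means that a gene fell less in Farage, or rose more. It was called positive for 15 of the 35 genes and negative for 2, where 17.3% of all genes were positive and 17.6% negative. The median was 0.18, against -0.07 over all genes. When library medians were made equal, the median over all genes was 0.08, and the counts were 19 positive and 0 negative; as TPM they were 16 and 0. Of all called genes, 49.6% were positive, against 61.7% as TPM and 68.4% with equal medians. The 7 positive deoxynucleotide genes were RRM1, RRM2, TYMS, DTYMK, DUT, TK1 and DCK, with a median of 0.72 over the 8 tested. RRM2 had the largest difference, 1.09 ± 0.05 (limma adjusted p = 3.16e-07). It was followed by TK1 (1.04 ± 0.11, adjusted p = 5.40e-05), PRPS2 (0.99 ± 0.11, 7.67e-05) and TYMS (0.96 ± 0.14, 0.000499). RRM1 (0.75 ± 0.08, 5.03e-05) and DTYMK (0.68 ± 0.09, 0.000186) came next.

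For the 15 genes of purine synthesis and salvage the difference of the responses was called for 5, with 3 positive (GART, GMPS and HPRT1), 2 negative (PPAT and IMPDH2), 10 not called and a median of 0.09. These counts are close to the shares over all genes, 17.3% positive and 17.6% negative, and are not read as a result about the purine genes. The calls of PPAT (-0.33 ± 0.06, limma adjusted p = 0.00294) and IMPDH2 (-0.31 ± 0.08, adjusted p = 0.0143) were lost as TPM and with equal library medians, at adjusted p of 0.0913 to 0.150 and 0.164 to 0.294. The call of GMPS (0.24 ± 0.07, adjusted p = 0.0309) was lost under 4 other settings and without control 2, morusinol 1 or morusinol 2 of SU-DHL-8 or control 1, control 3, morusinol 2 or morusinol 3 of Farage, at adjusted p of at most 0.0792. The call of CAD (0.24 ± 0.08, adjusted p = 0.0456) was lost without control 1, control 3 or any morusinol library of SU-DHL-8 and without control 2, control 3, morusinol 1 or morusinol 2 of Farage (adjusted p 0.0547 to 0.0984). It was lost as well under 5 other settings (0.0507 to 0.0999). For PFAS, PAICS, ATIC, IMPDH1, UMPS, CTPS1, PNP, SAMHD1 and NME1 the difference lay between -0.13 and 0.18 and did not pass the test, which does not show that the responses were equal. SAMHD1 was closest to the threshold, at 0.17 ± 0.07 (adjusted p = 0.0855), and passed it without SU-DHL-8 morusinol 2 (0.21, adjusted p = 0.0441) and with equal library medians (0.32, adjusted p = 0.0163). UMPS also passed with equal library medians (0.25, adjusted p = 0.0247). Among the purine genes not called, GUK1 passed as TPM (0.44, adjusted p = 0.0357), with equal medians (0.48, adjusted p = 0.0489) and without Farage morusinol 3 (0.48, adjusted p = 0.00524). ADSS2 passed with equal medians (0.30, adjusted p = 0.0416) and without Farage morusinol 1 (0.23, adjusted p = 0.0248).

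**Figure D3:**
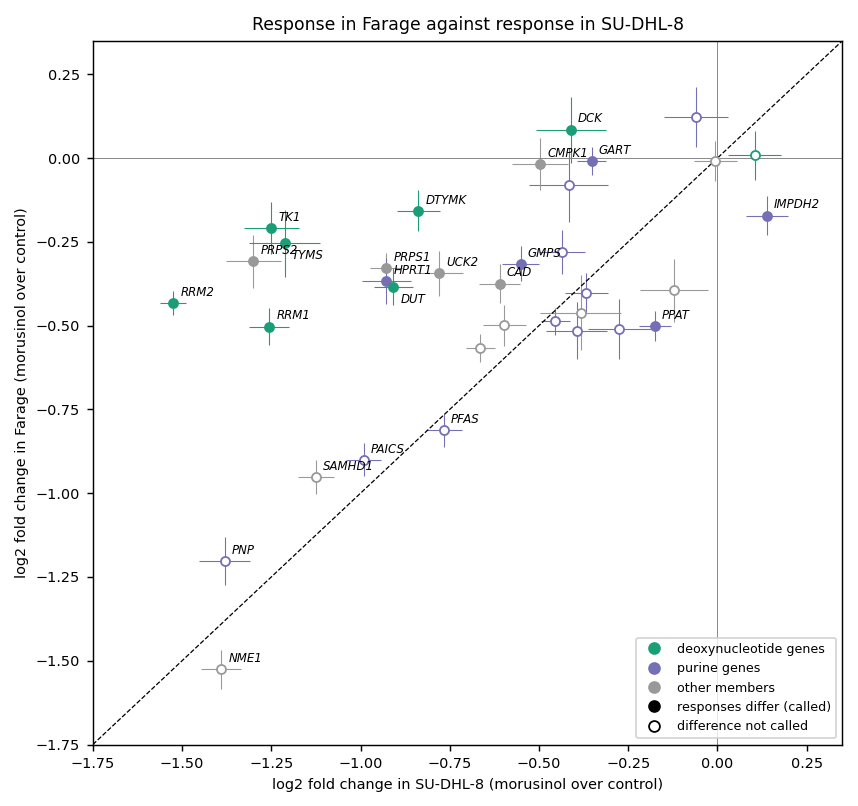
Log2 fold change of FPKM + 1 in Farage (vertical) against SU-DHL-8 (horizontal) for the 35 tested genes, bars being the SE, the dashed line equal responses and filled points genes whose responses differ by the test. RRM2, TK1, PRPS2, TYMS and RRM1 lie above the dashed line at the left, while NME1, PNP, SAMHD1 and PAICS lie near it.

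Without morusinol, 25 of the 35 genes were lower in Farage than in SU-DHL-8 and 5 were higher, where 29.6% of all genes were lower and 34.5% higher. The median log2 difference was -0.38, against 0.08 over all genes. With equal library medians the median over all genes was -0.16 and the counts were 27 lower and 2 higher. Of all called genes 53.8% were higher in Farage, and 38.2% with equal medians. The SU-DHL-8 and Farage control libraries also enter the responses above, so the control differences and the responses are not independent. The largest called difference downward was that of UCK2, which averaged 5.34 ± 0.276 FPKM in Farage control and 26.9 ± 0.968 FPKM in SU-DHL-8 control (log2 difference -2.14 ± 0.07, limma adjusted p = 4.99e-10). It was followed by IMPDH1, with 8.52 ± 0.732 FPKM in Farage control and 32.9 ± 1.24 FPKM in SU-DHL-8 control (-1.84 ± 0.06, adjusted p = 7.99e-10). TYMS (-1.19 ± 0.10) and RRM2 (-1.05 ± 0.04) came next.

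CTPS2 was the gene farthest above SU-DHL-8 in Farage. The fitted log2 difference between the control groups was 3.42 (limma adjusted p = 5.94e-12). It depends on the constant added to FPKM, since SU-DHL-8 control is near 0, so no fold is given. CMPK1 averaged 63.0 ± 4.19 FPKM in Farage control and 45.1 ± 2.9 FPKM in SU-DHL-8 control. ADA averaged 1.58 ± 0.132 FPKM in Farage control and 0.997 ± 0.0823 FPKM in SU-DHL-8 control. ADSS2 was at 23.5, 23.6 and 23.9 FPKM in the Farage controls, above the 20.1, 20.4 and 19.4 FPKM of the SU-DHL-8 controls. CMPK1 and CTPS2 were called higher in Farage under every setting run. ADA lost its call with equal medians (adjusted p = 0.268), and ADSS2 then had a difference of -0.005. DUT, the fifth, lost its call in several fits, among them those without SU-DHL-8 control 1, SU-DHL-8 control 3, Farage control 1 or Farage control 3 (adjusted p 0.0717 to 0.124).

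**Figure D4:**
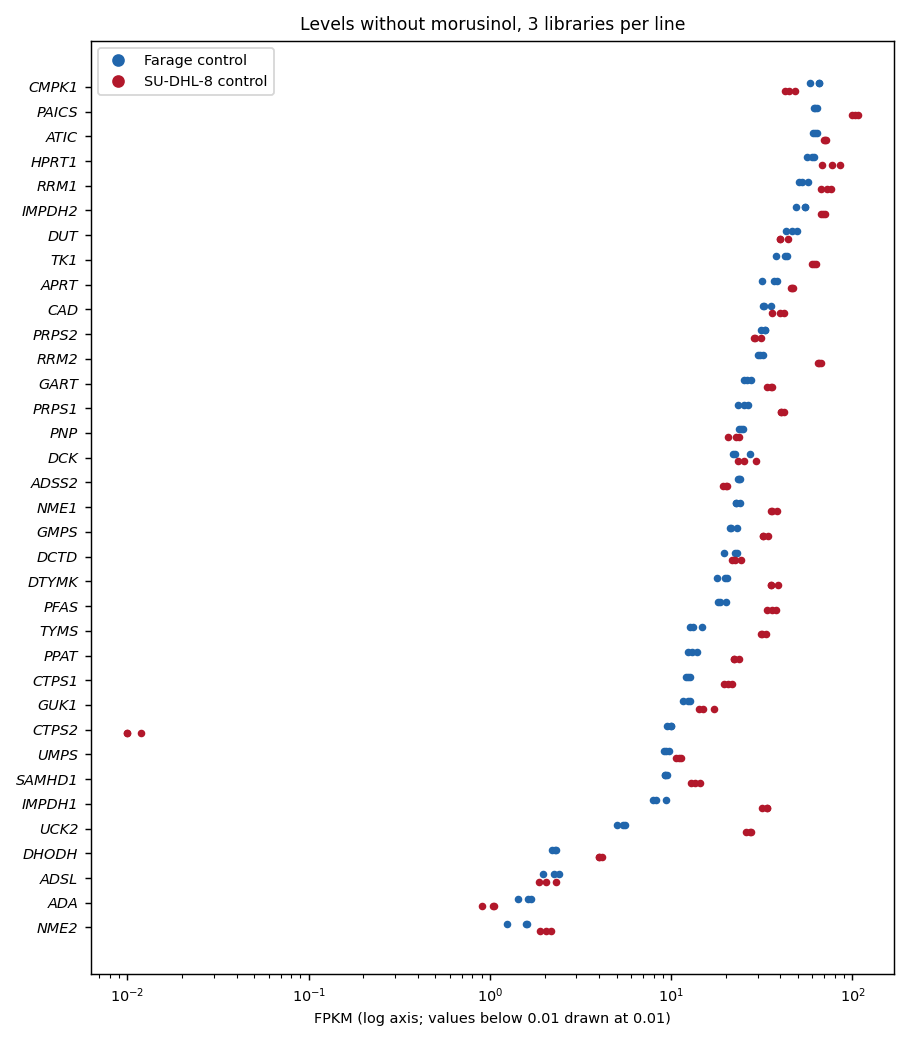
FPKM of the 35 tested genes in the control libraries on a log axis, Farage in blue above SU-DHL-8 in red, ordered by the Farage mean; values below 0.01 are drawn at 0.01. IMPDH1 and UCK2 stand well to the left in Farage, and CTPS2 stands at the left edge in SU-DHL-8.

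RefSeq promoter windows of 300 bases, from 250 before to 50 after the start, were at hand for 34 of the 36 genes, on GRCh38.p14. They were searched on both strands for the letters of 5 motifs, and no test was made. The E2F letters (TTTGGCGC, TTTCCCGC, TTTCGCGC, TTTGGCGG or TTTCCCGG) stood in 6 windows, those of PRPS2, GMPS, UMPS, TYMS, DTYMK and DCK. That is 17.6% of the 34, and 4.82% of the 27305 promoters of the table hold them. RRM1, RRM2, TK1 and DUT hold no such letters in their windows. The windows follow RefSeq starts, which can differ from the GENCODE starts. The RRM2 bases shown above end at position 10122738, while its GENCODE start is 10120698. The E-box CACGTG, the site known for MYC and related factors, stood in 5 windows (PPAT, ATIC, DHODH, NME1 and DCK), or 14.7%, against 7.43% of all promoters. The CCAAT box (ATTGG) stood in 11 windows, or 32.4%, against 35.7% of all promoters, with 3 copies each in RRM2 and GART. The ATF4 letters TGATGCAA stood in 0 windows, against 0.923% of all promoters, and the NRF1 letters GCGCATGCG in that of CTPS1, or 2.94%, against 2.10%. A match is a run of letters and not a site shown to be bound.

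**Figure D5:**
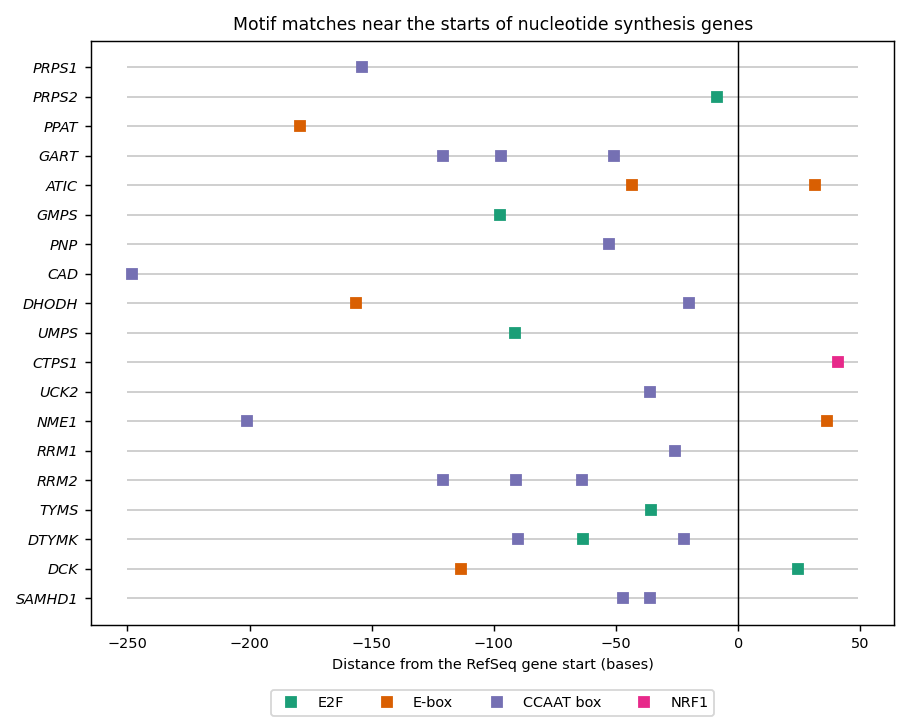
Motif matches in the RefSeq windows of the 19 genes that hold at least 1 match, by distance in bases from the gene start (vertical line); each square is a match and its colour the motif. E2F letters lie within 101 bases of the start in all windows that hold them, and RRM2 holds 3 CCAAT boxes upstream of its RefSeq start.

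Other genes around the pathway did not move in a single direction, except those of G1 and S phase. Of 57 other genes of nucleotide metabolism, 41 were tested, with 10 higher and 18 lower in SU-DHL-8 and 12 higher and 17 lower in Farage. In SU-DHL-8 that is 24.4% higher and 43.9% lower, against 25.1% and 21.6% of all genes. In Farage it is 29.3% higher and 41.5% lower, against 21.9% and 21.2% of all genes. The share of lower genes was thus above that of all genes in both lines. The medians were -0.03 in SU-DHL-8 and -0.09 in Farage. SLC29A1, an equilibrative nucleoside transporter, averaged 15.4 ± 1.5 FPKM in SU-DHL-8 with morusinol and 50.8 ± 0.413 FPKM in control. In Farage SLC29A1 averaged 24.9 ± 0.556 FPKM with morusinol and 29.3 ± 1.28 FPKM in control. DCTPP1, which hydrolyses dCTP and its modified forms, had log2 fold changes of -1.50 ± 0.08 in SU-DHL-8 and -1.09 ± 0.08 in Farage. UPP1, the uridine phosphorylase that opens uridine breakdown, averaged 31.7 ± 1.19 FPKM in Farage with morusinol and 8.57 ± 0.212 FPKM in control (log2 fold change 1.77 ± 0.09, limma adjusted p = 1.61e-07). In SU-DHL-8 UPP1 was below 1 FPKM in all libraries and was not called (adjusted p = 0.895).

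Folate and one-carbon genes supply carbon for purines and for dTMP. Of 20 listed, 14 were tested, with 5 higher and 6 lower in each line, or 35.7% and 42.9%. Of all genes 25.1% were higher and 21.6% lower in SU-DHL-8, and 21.9% and 21.2% in Farage. SHMT2, MTHFD2 and MTHFD1L, which work in mitochondria, were higher in both lines. SHMT2, the serine hydroxymethyltransferase, had log2 fold changes of 1.27 ± 0.06 in SU-DHL-8 and 1.96 ± 0.06 in Farage. MTHFD2 had 0.68 ± 0.05 in SU-DHL-8 and 1.36 ± 0.05 in Farage, and MTHFD1L had 0.38 ± 0.03 in SU-DHL-8 and 1.01 ± 0.03 in Farage. The 22 listed G1 and S phase genes outside the members were all lower in SU-DHL-8, with a median of -1.05, and 17 were lower in Farage, with a median of -0.48. The difference of the responses was positive for 16 of the 22 and negative for 0, where 17.3% of all genes were positive and 17.6% negative. The deoxynucleotide genes had a median of -1.06 in SU-DHL-8, close to that of the listed G1 and S phase genes. In Farage their median was -0.23, with 3 of 8 lower, against -0.48 and 77.3% lower for the G1 and S phase genes. The part of the G1 and S phase genes in the deoxynucleotide result was not tested.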

How the data were processed

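Total RNA of 12 libraries, 3 for each of 4 groups, was turned into sequencing libraries by a SMARTer kit for mRNA, per the labels' protocols. The deposited data are 1 table of FPKM computed by the authors, 1 column per library. The aligner, the counter, the annotation and whether strand was used are not stated in the labels. The submitters' processing notes list the builds GRCm38 and mm10, which are mouse, but the 61466 gene identifiers are all human. GENCODE release 29 on GRCh38 holds 58297 of them (94.8%) and gave positions and exon overlaps. Columns marked n were read as control, the 1 group otherwise without columns in each line. Libraries were compared and no pair was identical.

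The deposited FPKM kept the scaling of the authors. Depth was estimated from the steps of FPKM times exon length, and 45.8% to 49.3% of low values lay within 0.02 of a step of 0.5 fragments, so no counts were recovered and no counting interval is given. A gene was tested if 3 or more libraries reached 1 FPKM, which held for 17574 genes. The test was limma 3.58.1 (R 4.3.3) on log2(FPKM + 1), with 1 mean per group over all 12 libraries, an intensity trend and a robust prior. It was two-sided, with Benjamini-Hochberg adjustment over all genes tested and a threshold of 0.05. The script was tested on simulated data. Alternatives were a pseudocount of 0.1, no filter, TPM, scaling to protein-coding genes, equal library medians, only the libraries compared, no trend, a replicate block and each library left out. Per-library values are given for regulated or committed steps, for the 5 largest called falls per line, for the 6 largest differences between responses and for the 4 largest control differences in each direction, and up to 3 genes per outside list are named. Members, lists and rules were chosen with earlier results of these data known.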

Additional observations from a re-analysis of the deposited data

Results flagged for a closer look

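For 17 of the 35 genes the response to morusinol differed between Farage and SU-DHL-8 by the limma test of the difference itself (15 positive, 2 negative), given here as the Farage log2 fold change minus that of SU-DHL-8. The deoxynucleotide genes gave 1.09 for RRM2, 1.04 for TK1, 0.96 for TYMS, 0.75 for RRM1, 0.68 for DTYMK, 0.52 for DUT and 0.50 for DCK. The PRPP synthetases gave 0.99 for PRPS2 and 0.60 for PRPS1. Among purine genes the difference was 0.56 for HPRT1, 0.34 for GART and 0.24 for GMPS, and it was negative for PPAT at -0.33 and for IMPDH2 at -0.31. Among pyrimidine genes it was 0.48 for CMPK1, 0.44 for UCK2 and 0.24 for CAD. Across all genes tested 17.3% had a positive and 17.6% a negative difference. The calls of CAD, GMPS, PPAT and IMPDH2 were lost under some of the other settings, and those of CAD and GMPS also without single libraries, so 13 of the 17 kept their call under every setting that used all libraries.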

How the results depend on the processing

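Of the called genes, 27 of 30 in SU-DHL-8, 24 of 25 in Farage, 13 of 17 for the difference of responses and 22 of 30 for the controls kept call and direction under all alternatives that kept every library, and 28, 24, 15 and 27 did so when each library was left out. Genes called higher in SU-DHL-8 numbered 1 without the filter (TK2), and 1 with protein-coding scaling and with only the SU-DHL-8 libraries (IMPDH2). Genes with a negative difference of responses numbered 0 as TPM and with equal medians, and genes higher in Farage control numbered 2 with equal medians. Leaving out 1 library gave 28 to 30 lower genes in SU-DHL-8, 24 to 27 in Farage, 13 to 15 positive and 2 to 3 negative differences of responses, and 4 to 5 higher and 23 to 24 lower genes between the controls. Calls over all genes, in either direction, then numbered 7268 to 7539 in SU-DHL-8 and 6494 to 7041 in Farage. They numbered 5303 to 5871 for the difference of responses and 10315 to 10734 between the controls. Fitted values that changed sign were as follows, and the cause was not tested. In SU-DHL-8 with equal medians they were IMPDH2 -0.013 and DCTD -0.0472. In Farage they were, as TPM, GART 0.00359 and CTPS2 0.00398, and with protein-coding scaling GART 0.0571, CMPK1 0.0502 and CTPS2 0.0544. For the difference of responses they were, as TPM, PFAS 0.0642, ATIC 0.0840, IMPDH1 0.0752, CTPS2 0.00941 and DCTD 0.0195. With equal medians they were PFAS 0.101, ATIC 0.115, IMPDH1 0.112, APRT 0.0271, CTPS2 0.145, NME1 0.0132, NME2 0.0700 and DCTD 0.0520, and CTPS2 was 0.0444 with a pseudocount of 0.1 and 0.0598 with protein-coding scaling. Between the controls they were, as TPM, DCTD 0.0225, and with equal medians PRPS2 -0.115, ADSL -0.179, ADSS2 -0.00480, PNP -0.121 and DUT -0.0886. Without 1 library the Farage values ran from -0.0423 to 0.0244 for GART, -0.1003 to 0.0291 for CMPK1, -0.0360 to 0.0329 for CTPS2, -0.0614 to 0.0561 for DCTD and -0.184 to 0.0614 for GUK1. The difference of responses then ran from -0.190 to 0.00521 for NME2, -0.0787 to 0.0257 for IMPDH1 and -0.0303 to 0.0386 for CTPS2. Fitting only the libraries compared was not run for the difference of responses, which uses all groups. Same-numbered treated and control libraries did not deviate together (r of -0.0108, -0.0164 and 0.0331 in SU-DHL-8 and 0.0310, -0.0788 and -0.0191 in Farage), so the main fit did not pair them. With 3 libraries a group, such values cannot show that the libraries were unpaired. With a replicate block within line, 29 genes were lower in SU-DHL-8, 25 in Farage and 24 between the controls, and 13 differences were positive. Depth is known only as an estimate, so small differences of genes under about 2 FPKM (ADSL, ADA, NME2, TK2) are least certain.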
